A study of Mus musculus with 12 samples.

Results

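The 10 genes described here encode the 3 superoxide dismutases (Sod1, Sod2 and Sod3) and 7 enzymes and transporters that are textbook targets of the transcription factor NRF2 (Hmox1, Nqo1, Gclc, Gclm, Txnrd1, Srxn1 and Slc7a11). They were taken by gene symbol from a table of 24411 genes, and all 10 were present and passed the filter on low counts. The table comes from RNA sequencing of primary colonic myofibroblasts, contractile mesenchymal cells that lie beneath the colonic epithelium. Cells were grown from the distal colon of C57BL/6 mice aged 16 weeks, either TNFR1-/- (knockout, 6 libraries) or heterozygous TNFR1-/+ (control, 6 libraries), so the controls also carry 1 mutant allele. Both groups were untreated, at passage 6 to 8, and were collected 5 days after seeding in Matrigel. The growth medium of both groups contained insulin, transferrin, sodium selenite and epidermal growth factor. TNFR1 is the receptor through which tumor necrosis factor activates NF-kB, and the series concerns the role of that signal in the colonic mesenchyme.

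Superoxide, a by-product of respiration and the product of NADPH oxidases, is converted to hydrogen peroxide by superoxide dismutases in the cytosol (SOD1), in mitochondria (SOD2) and outside the cell (SOD3). NRF2, encoded by Nfe2l2, is held at a low level by KEAP1, which presents it to a CUL3 ubiquitin ligase. When KEAP1 cysteines are oxidized, NRF2 accumulates and binds antioxidant response elements together with small MAF proteins, while BACH1 competes for the same elements. Sod2 is a known NF-kB target, and Slc7a11 and Hmox1 also answer to other stress pathways.

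Library totals ran from 6543013 to 9937008 counts for the knockout and from 11890729 to 16458689 for the control. Profiles were nearly identical within 4 sets of libraries. Knockout 1 to 4 made up one, knockout 5 with 6 another, control 1 to 5 the next, and control 6 stood by itself. Spearman correlations over genes were at least 0.989 inside a set and 0.927 to 0.955 between sets of one genotype. Between libraries of different genotypes they were 0.884 to 0.976, so some knockout and control libraries were more alike than the sets of one genotype. Nothing in the labels ties libraries to animals or cultures, so p-values measure only the spread between these libraries, which may be technical. In knockout 5 and 6 the ribosomal RNA precursor Rn45s took 7.01% to 8.25% of counts, against at most 2.1% in any other library. The targeted gene Tnfrsf1a was lower in the knockout, at 40.6 to 46.1 CPM (counts scaled to the size of the library) against 54.9 to 81.3 CPM. Of the myofibroblast and fibroblast markers 4 were called higher (Acta2, Tagln, Myl9 and Vim), 3 lower (Pdgfra, Col3a1 and Dcn) and 5 were not called. Acta2 was at 2788 to 6647 CPM in the knockout and 1460 to 3278 CPM in the control. The mean of Dcn fell from 621 to 191 CPM. Each of these markers except Vim was lower in knockout 5 and 6 than in any other knockout library. Acta2 was at 2848 and 2788 CPM there, against at least 5971 CPM in the others. Col1a1 was at 1993 and 2102 CPM, against at least 10467 CPM. The epithelial markers Epcam and Cdh1 reached at most 0.104 CPM in any library. Of the epithelial list 2 of 10 members, Krt19 and Krt20, could be tested and neither was called. Both were above the level of Epcam and Cdh1 in every library. Krt19 averaged 10.7 CPM in the knockout and 7.33 CPM in the control. For Krt20 the knockout had 4.14 to 5.96 CPM and control 1 to 5 had 0.585 to 0.979 CPM. Control 6 was above both at 7.38 CPM. Krt18, which was not tested, reached 3.53 CPM in knockout 5. Endothelial markers gave 1 lower of 3 tested, and glial and neuronal markers 1 higher and 2 lower of 4. Over all tested genes 21.4% were called higher and 21.6% lower.

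Of the 10 genes, 2 were higher and 3 lower in the knockout at an edgeR adjusted p below 0.05, with 5 not called. Sod2 and Nqo1 were higher, and Hmox1, Srxn1 and Slc7a11 were lower. Over all 12146 genes tested, 43.0% were called (21.4% higher and 21.6% lower), so a count of 5 of 10 lies near that background. The median log2 difference (knockout minus control) of the 10 genes was -0.13, against 0.02 over all tested genes. All 6 knockout libraries lay above all 6 controls for 1 member, Sod2, and below them for 1 member, Hmox1, while 23.0% of all tested genes had groups without overlap (10.6% with the knockout above and 12.5% below). The share of all genes called was higher when libraries that stand apart were left out. Without control 6, edgeR called 2 members higher and 4 lower (49.9% of all genes, 25.4% higher and 24.5% lower). Without knockout 5 and 6 it called 2 higher and 3 lower (52.0% of all genes, 24.5% higher and 27.5% lower). Without all 3 libraries it called 3 higher and 6 lower (71.3% of all genes, 34.9% higher and 36.4% lower). These counts include the dismutases. Among the NRF2 targets only Nqo1 was called higher in any of these fits, while Hmox1, Srxn1 and Slc7a11 were called lower in each. Gclc was also called lower without control 6, and Gclc and Txnrd1 were without all 3 libraries. The NRF2 targets thus did not all change in 1 direction. When near-identical libraries were summed, leaving 2 sums per genotype, edgeR called none of 13132 genes. At an unadjusted p below 0.05 that fit held 1047 genes (7.97%) and none of the 10.

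**Figure D1:**
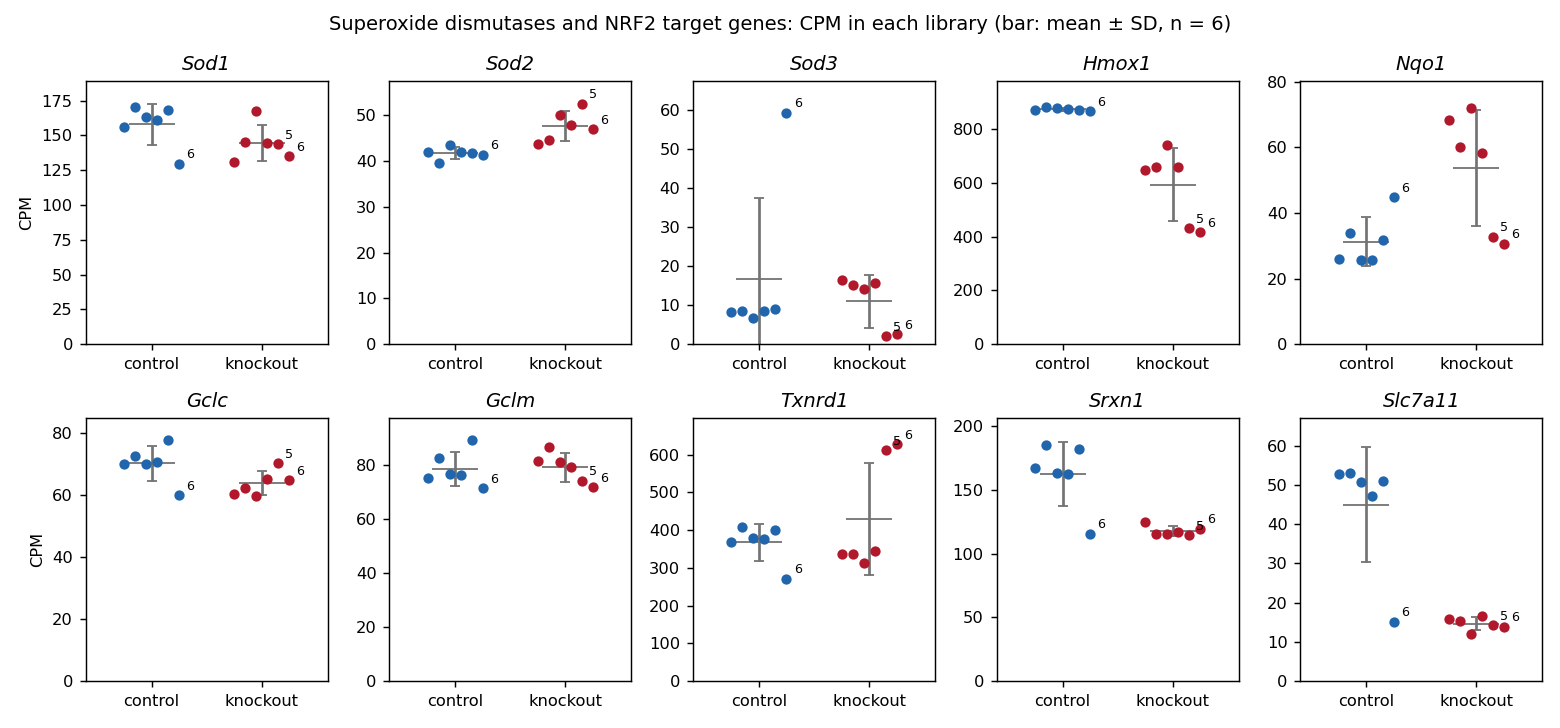
CPM of the 10 genes (vertical axes, linear from 0) in the 6 control (blue) and 6 knockout (red) libraries, drawn from replicate 1 at the left to 6 at the right, with the group mean and SD in grey; control 6 and knockout 5 and 6 are numbered, and the SD bar of Sod3 in the control runs below 0. Slc7a11 in control 6 sits at 15.1 CPM among the knockout values, and Hmox1 separates the groups.

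Sod1, the copper and zinc dismutase of the cytosol, was not called. It was present at 131 to 168 CPM (median 144) in the knockout and 130 to 170 CPM (median 162) in the control. The groups overlapped, with knockout 3 above controls 1, 3 and 4 and control 6, at 130 CPM, the lowest of the 12 libraries. The log2 difference was -0.13 (SE 0.09; edgeR adjusted p = 0.254), and it was called lower only when knockout 5, knockout 6 and control 6 were left out (-0.16, adjusted p = 0.0252). Ccs, the chaperone that loads copper into SOD1, was at 28.8 ± 2.06 CPM (SD, n = 6) in the knockout and 29.7 ± 2.23 CPM (SD, n = 6) in the control and was not called. Of 6 genes listed for metal supply to the dismutases none was called higher and 1 lower, where 43.0% of all tested genes were called. The gene called lower was Slc25a39, a mitochondrial glutathione carrier, at 89.4 to 121 CPM in the knockout and 211 to 229 CPM in control 1 to 5. Control 6 was inside the knockout range at 102 CPM.

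Sod2, the manganese dismutase of mitochondria, was slightly higher in the knockout. Its level was 43.7 to 52.5 CPM (median 47.4) in the knockout and 39.5 to 43.4 CPM (median 41.8) in the control, so the groups came close without overlapping. The fold difference was 1.14 (log2 difference 0.19, SE 0.07; edgeR adjusted p = 0.0331). Both knockout sets were above both control sets, by 0.15 to 0.27 on the log2 scale. The call was lost when near-identical libraries were summed (edgeR adjusted p = 0.808) and with a replicate block (0.0989). It was also lost with libraries scaled by total counts alone (0.172) and with no filter on low counts (0.0833). The same held on leaving out knockout 4, knockout 5, control 1, control 2, control 4 or control 5 (0.0517 to 0.0803).

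Sod3, the secreted dismutase that binds matrix heparan sulfate, varied most among the 10 genes. Knockout 1 to 4 had 14.1 to 16.3 CPM and knockout 5 and 6 had 2.08 and 2.59 CPM. Control 1 to 5 had 6.60 to 9.06 CPM, while control 6 had 59.1 CPM. Libraries of 1 genotype therefore differed more than the genotype means, which were 10.99 ± 6.75 CPM (SD, n = 6) in the knockout and 16.7 ± 20.8 CPM (SD, n = 6) in the control. The log2 difference was -0.61 (SE 0.66; edgeR adjusted p = 0.477). Without control 6 it was 0.42 (adjusted p = 0.488), and without knockout 5, knockout 6 and control 6 it was 0.92 (adjusted p = 5.6e-07), so its direction rested on those libraries.

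Hmox1 encodes heme oxygenase 1, which opens heme into biliverdin, carbon monoxide and iron, and it was lower in every knockout library. Knockout 1 to 6 had 649, 661, 744, 661, 432 and 417 CPM. In control 1 to 6 it was 871, 884, 879, 877, 870 and 868 CPM. The controls were nearly equal, control 6 included, and knockout 5 and 6 were the lowest. The knockout averaged 594 ± 136 CPM (SD, n = 6) and the control 875 ± 6.11 CPM (SD, n = 6), a fold of 1.47 (log2 difference -0.56, SE 0.14; edgeR adjusted p = 0.00765). Without knockout 5 and 6 the log2 difference was -0.37 (adjusted p = 0.00108). Each knockout set was below each control set, by 0.37 to 1.05 on the log2 scale.

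Genes that act after or beside heme oxygenase moved in both directions. Of 8 listed genes for heme and iron handling, 4 were called lower, 2 higher and 2 were not called, with a median log2 difference of -0.37, where 21.6% of all tested genes were called lower and 21.4% higher. Slc40a1, the iron exporter ferroportin, fell from 11.7 ± 1.36 CPM (SD, n = 6) in the control to 4.69 ± 2.26 CPM (SD, n = 6), a log2 difference of -1.33 with SE 0.30 (edgeR adjusted p = 0.0034). Blvrb, a biliverdin reductase, fell from 46.3 to 26.1 CPM. The ferritin heavy chain gene Fth1, which stores iron, fell from 1624 to 940 CPM, with 624 to 1270 CPM in the knockout and 1420 to 1753 CPM in the control. For Ftl1, the ferritin light chain, the fall was from 4023 to 2716 CPM, but control 6 at 2915 CPM was inside the knockout range. Both ferritin genes have near-identical copies in the genome, so their levels are uncertain.

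The 2 genes of the list that rose serve iron uptake and sensing. Tfrc, the transferrin receptor, had 103 to 175 CPM (median 109) in the knockout and 39.9 to 57.0 CPM (median 47.2) in the control, with no overlap (log2 difference 1.45, SE 0.16; edgeR adjusted p = 3.24e-05). Ireb2, the iron regulatory protein IRP2 that binds transferrin receptor and ferritin messages, rose from 65.5 to 93.3 CPM. Hmox2, the constitutive heme oxygenase, and Blvra were not called. Fth1, Ftl1, Blvrb and Ireb2 are among the genes named after their values were seen.

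Hmox1, Slc40a1 and the ferritins are also abundant in macrophages, and most markers of those cells were also called lower. Of 10 macrophage and leukocyte markers, 7 were called lower, none higher and 3 were not called, against 21.6% of all tested genes called lower. Their summed level was 38.5 to 57.5 CPM in the knockout and 80.7 to 129.4 CPM in the control, mostly from Lyz2 at 27.3 to 36.9 and 49.2 to 93.2 CPM. Control 6 had the highest sum. It was the highest control for Lyz2 (93.2 CPM), Csf1r (8.33 CPM), Adgre1 (3.18 CPM), Mrc1 (2.86 CPM) and Ptprc (1.65 CPM). For Fcer1g it was the lowest control (2.61 CPM), and for Cd68, Itgam, Cd14 and Tyrobp it lay between other controls. Hmox1 in control 6 was at 868 CPM. The leukocyte antigen Ptprc was near 0, at 0.209 to 1.04 and 0.678 to 1.65 CPM. The part of these cells in the result was not tested. In such bulk samples fewer cells of a type and less RNA per cell cannot be told apart.

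**Figure D2:**
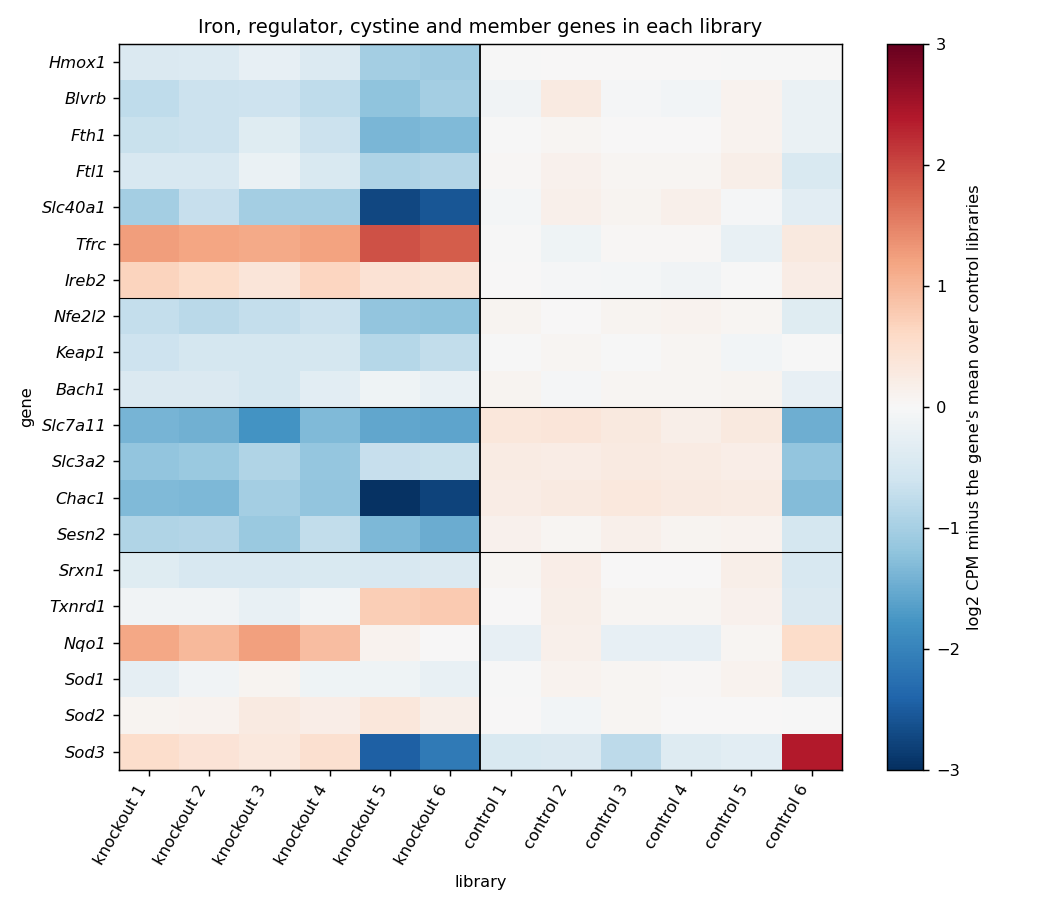
Log2 CPM of 20 genes (rows) in the 12 libraries (columns), each minus the gene's mean over the 6 control libraries; red is above and blue below that mean, and the vertical line parts knockout from control. Hmox1 is near 0 in every control, whereas Slc7a11, Slc3a2 and Chac1 are as low in control 6 as in several knockout libraries, and Sod3 is low in knockout 5 and 6 and high in control 6.

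Nqo1 encodes a quinone reductase that is often read as a marker of NRF2 activity, and it was higher in part of the knockout libraries. Knockout 1 to 4 had 58.1 to 71.8 CPM, and knockout 5 and 6 had 32.8 and 30.6 CPM. Control 1 to 5 had 25.6 to 33.8 CPM, and control 6 had 44.8 CPM. The groups thus overlapped, with knockout 5 and 6 inside the range of control 1 to 5. The means were 53.6 ± 17.7 CPM (SD, n = 6) in the knockout and 31.2 ± 7.49 CPM (SD, n = 6) in the control, a fold of 1.71 (log2 difference 0.78, SE 0.23; edgeR adjusted p = 0.0154). Knockout 5 and 6 were below control 6 by 0.50 on the log2 scale, and without knockout 5 and 6 the difference was 1.04 (adjusted p = 0.000335).

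Slc7a11, the cystine importer xCT that supplies cysteine for glutathione, had the largest difference among the 10 genes. Knockout 1 to 6 had 15.8, 15.3, 12.02, 16.5, 14.2 and 13.9 CPM. In control 1 to 6 it was 52.7, 53.2, 50.8, 47.3, 50.9 and 15.1 CPM. All knockout libraries were alike, and control 6 sat among them, far below the other controls. The fold was 3.07 (log2 difference -1.62, SE 0.25; edgeR adjusted p = 0.000301). In contrasts of summed sets the log2 difference was -1.75 and -1.86 against control 1 to 5 but 0.00 and -0.11 against control 6.

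The upstream sequence of Slc7a11 is shown because it holds the amino acid response element core TGATGNAA, a sequence bound by ATF4, next to an antioxidant response element core. Windows of 250 bases before the start site were searched on both strands for TGATGNAA and for the antioxidant cores TGACNNNGC and TGAGNNNGC, in RefSeq promoters of build GRCm38.p6. The Slc7a11 window is chr3:50443614-50443863 on the minus strand, read 5′ to 3′ towards the gene, with matches in capitals.
Slc7a11: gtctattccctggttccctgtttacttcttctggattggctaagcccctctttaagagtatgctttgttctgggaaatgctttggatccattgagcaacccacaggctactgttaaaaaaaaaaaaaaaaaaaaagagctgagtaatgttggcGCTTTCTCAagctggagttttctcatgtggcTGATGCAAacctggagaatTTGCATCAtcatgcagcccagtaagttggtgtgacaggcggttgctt
TGATGCAA matches on the strand of the gene with its leftmost printed base at -66 and on the opposite strand with its leftmost at -47, counting the base before the start site as -1. A match to TGATGNAA was present in 3.45% of 32851 windows. TGAGAAAGC, on the opposite strand at -97, matches the loose core TGAGNNNGC, which 14.4% of windows held. Such matches describe the sequence and do not show binding.

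In Slc3a2 and Chac1, which act beside xCT, control 6 was again far below the other controls, while the knockout libraries were less alike than for Slc7a11. Slc3a2, the heavy chain that carries xCT to the membrane, was at 198 to 239 CPM in knockout 1 to 4, at 279 and 283 CPM in knockout 5 and 6, at 515 to 539 CPM in control 1 to 5 and at 197 CPM in control 6 (log2 difference -1.01, SE 0.22; edgeR adjusted p = 0.0026). Chac1, which degrades glutathione and is a target of ATF4, ranged from 23.9 to 30.1 CPM over knockout 1 to 4 but was at 7.78 and 8.80 CPM in knockout 5 and 6, against 70.5 to 75.5 CPM in control 1 to 5 and 24.4 CPM in control 6 (log2 difference -1.68, SE 0.36; edgeR adjusted p = 0.00261). Control 6 lay just under the knockout range for Slc3a2 and inside it for Chac1.

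Gclc and Gclm, the catalytic and modifier subunits of the enzyme that begins glutathione synthesis, were not called. Gclc had 59.5 to 70.1 CPM (median 63.4) in the knockout and 59.9 to 77.6 CPM (median 70.3) in the control (log2 difference -0.14, SE 0.07; edgeR adjusted p = 0.154). The groups overlapped through control 6, the lowest control, and knockout 5, the highest knockout library, and without control 6 Gclc was called lower (-0.18, adjusted p = 0.0312). Gclm had 71.9 to 86.9 CPM (median 80.4) and 71.5 to 89.5 CPM (median 76.6), with a log2 difference of 0.01 (SE 0.08; edgeR adjusted p = 0.926). Exons of Gclm overlap 2 other annotated genes, 1 on the opposite strand and 1 pseudogene on the same strand, over 4.71% and 3.88% of their length. Of 19 listed genes of glutathione synthesis and use, 5 were called higher, 6 lower and 8 were not called, with a median log2 difference of 0.18. The share called was 57.9%, against 43.0% of all tested genes. Mgst3, a membrane glutathione transferase, rose from 3.70 ± 1.55 to 8.72 ± 4.12 CPM (SD, n = 6 each; edgeR adjusted p = 0.0169), with knockout 5 and 6 inside the control range.

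Srxn1, sulfiredoxin, repairs peroxiredoxins that peroxide has overoxidized. Its level was 115 to 125 CPM (median 116) in the knockout, 163 to 185 CPM in control 1 to 5 and 116 CPM in control 6. The knockout libraries were alike, and control 6 was again inside their range. The fold was 1.38 (log2 difference -0.47, SE 0.10; edgeR adjusted p = 0.00325), and against control 6 alone the summed knockout sets differed by 0.04 and 0.02 on the log2 scale. The upstream window of Srxn1, chr2:152105274-152105523 on the plus strand (RefSeq, GRCm38.p6), is shown for comparison with that of Slc7a11, with matches to the antioxidant core in capitals.
Srxn1: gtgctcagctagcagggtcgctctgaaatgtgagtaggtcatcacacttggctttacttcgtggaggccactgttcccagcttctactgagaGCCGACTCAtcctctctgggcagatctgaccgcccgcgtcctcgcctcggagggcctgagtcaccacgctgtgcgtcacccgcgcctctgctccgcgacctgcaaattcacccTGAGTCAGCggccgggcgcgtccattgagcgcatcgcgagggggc
TGAGTCAGC matches on the strand of the gene with its leftmost base at -45, and TGAGTCGGC on the opposite strand with its leftmost at -158. Windows were found for 7 of the 10 genes, 9 windows in all because Txnrd1 has 3. None was found for Sod3, Hmox1 and Gclc. A match to either antioxidant core was present in the single windows of Srxn1, Slc7a11, Gclm and Sod1 and in 1 of the 3 of Txnrd1. Of all windows 23% held such a match, and enrichment was not tested. The windows of Nqo1 and Sod2 held none of the 3 motifs.

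Txnrd1, the cytosolic selenoenzyme that keeps thioredoxin reduced, split the knockout libraries. Knockout 1 to 4 had 314 to 344 CPM, and knockout 5 and 6 had 612 and 628 CPM. Control 1 to 5 had 368 to 408 CPM, and control 6 had 271 CPM. The control range thus lay between the 2 knockout sets, apart from control 6 below both. The log2 difference was 0.22 (SE 0.20; edgeR adjusted p = 0.384) and became -0.14 without knockout 5 and 6 (adjusted p = 0.279) and -0.21 without control 6 as well (adjusted p = 0.000372).

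**Figure D3:**
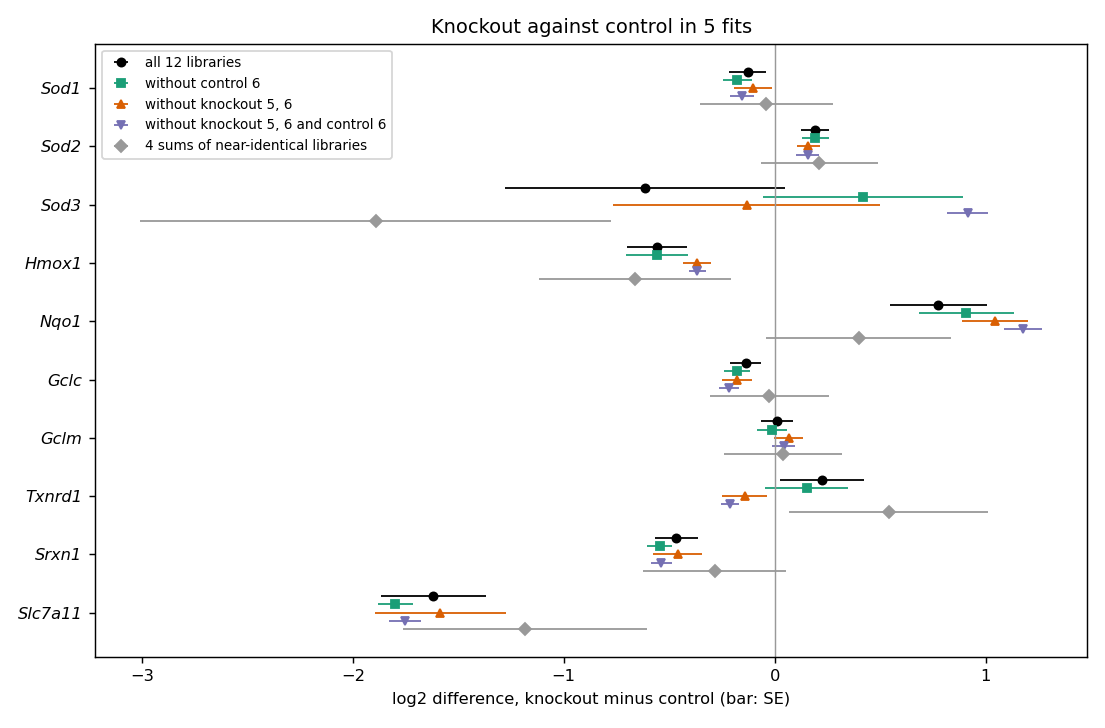
Log2 difference (knockout minus control, horizontal axis, bars SE) of the 10 genes in edgeR fits on all 12 libraries, without control 6, without knockout 5 and 6, without all 3 of these, and on 4 sums of near-identical libraries. Hmox1, Srxn1 and Slc7a11 are below 0 and Sod2 and Nqo1 above 0 in all 5 fits, while Sod3, Gclm and Txnrd1 change sign.

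Among 12 listed thioredoxin and peroxiredoxin genes, 3 were called higher, 1 lower and 8 were not called, with a median log2 difference of -0.03. That is 33.3% called, against 43.0% of all tested genes. Txnip, which binds and inhibits thioredoxin, had the largest rise. It was at 148 to 197 CPM in the knockout, at 14.1 to 21.0 CPM in control 1 to 5 and at 95.1 CPM in control 6 (log2 difference 2.46, SE 0.47; edgeR adjusted p = 0.00124). All knockout libraries were above all controls, and control 6 was far above the other controls. Prdx6, a peroxiredoxin that also reduces phospholipid peroxides, was the gene called lower, at 199 ± 13.4 CPM (SD, n = 6) against 241 ± 28.4 CPM (SD, n = 6). Its edgeR adjusted p of 0.0319 rose to 0.0598 to 0.0700 without knockout 1, 2 or 4 or any one of control 1 to 5.

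Of 13 listed genes that regulate NRF2, 6 were called lower, 2 higher and 5 were not called, with a median log2 difference of -0.34. Of all tested genes 21.6% were called lower and 21.4% higher, with a median of 0.02. Nfe2l2 itself was at 107 to 159 CPM (median 145) in the knockout and 192 to 266 CPM (median 259) in the control, with no overlap (log2 difference -0.87, SE 0.12; edgeR adjusted p = 0.00018). Keap1, the repressor of NRF2, was also lower, at 43.4 to 54.8 CPM (median 52.5) against 73.8 to 82.1 CPM (median 78.2), and control 6 was within the range of the other controls (log2 difference -0.63, SE 0.07; edgeR adjusted p = 5.61e-05). Over the 4 contrasts between summed sets, the log2 difference ran from -1.27 to -0.35 for Nfe2l2 and from -0.80 to -0.54 for Keap1.

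Bach1, which represses Hmox1, fell from 57.5 to 45.4 CPM, with control 6 at 48.5 CPM inside the knockout range of 39.5 to 52.8 CPM (edgeR adjusted p = 0.00804). Cul3, the ligase scaffold of the KEAP1 complex, rose from 85.9 ± 1.90 to 119 ± 24.8 CPM (SD, n = 6 each; edgeR adjusted p = 0.00692), and it was highest in knockout 5 and 6. Sqstm1, the autophagy receptor p62 that sequesters KEAP1, was at 735 to 875 CPM in the knockout, 1720 to 1783 CPM in control 1 to 5 and 835 CPM in control 6. Sesn2, a stress-induced protein that promotes KEAP1 degradation, had the largest fall of the list, from 111 ± 17.6 CPM (SD, n = 6) in the control to 52.8 ± 10.3 CPM (SD, n = 6), a log2 difference of -1.07 with SE 0.15 (edgeR adjusted p = 0.000156). Transcript levels of these genes do not give the amount of NRF2 protein.

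Of 14 genes listed as superoxide sources, 7 passed the filter, with 2 called higher, 2 lower and 3 not called. Among all tested genes 21.4% were called higher and 21.6% lower. The NADPH oxidase Nox4, the form typical of myofibroblasts, rose from 9.14 ± 1.25 to 12.1 ± 1.75 CPM (SD, n = 6 each; edgeR adjusted p = 0.0226). That call was lost without knockout 1, control 3 or control 5 (adjusted p = 0.0516 to 0.0545). Xdh, xanthine dehydrogenase, fell in all knockout libraries, to 113 to 147 CPM in knockout 1 to 4 and to 30.0 and 41.7 CPM in knockout 5 and 6, against 230 to 304 CPM in the control (log2 difference -1.28, SE 0.34; edgeR adjusted p = 0.0101). The other gene called lower was Rac2, a GTPase of the phagocyte oxidase found mainly in blood cells, at 0 to 0.517 CPM in the knockout and 1.02 to 2.04 CPM in the control, and it was named after its values were seen.

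**Figure D4:**
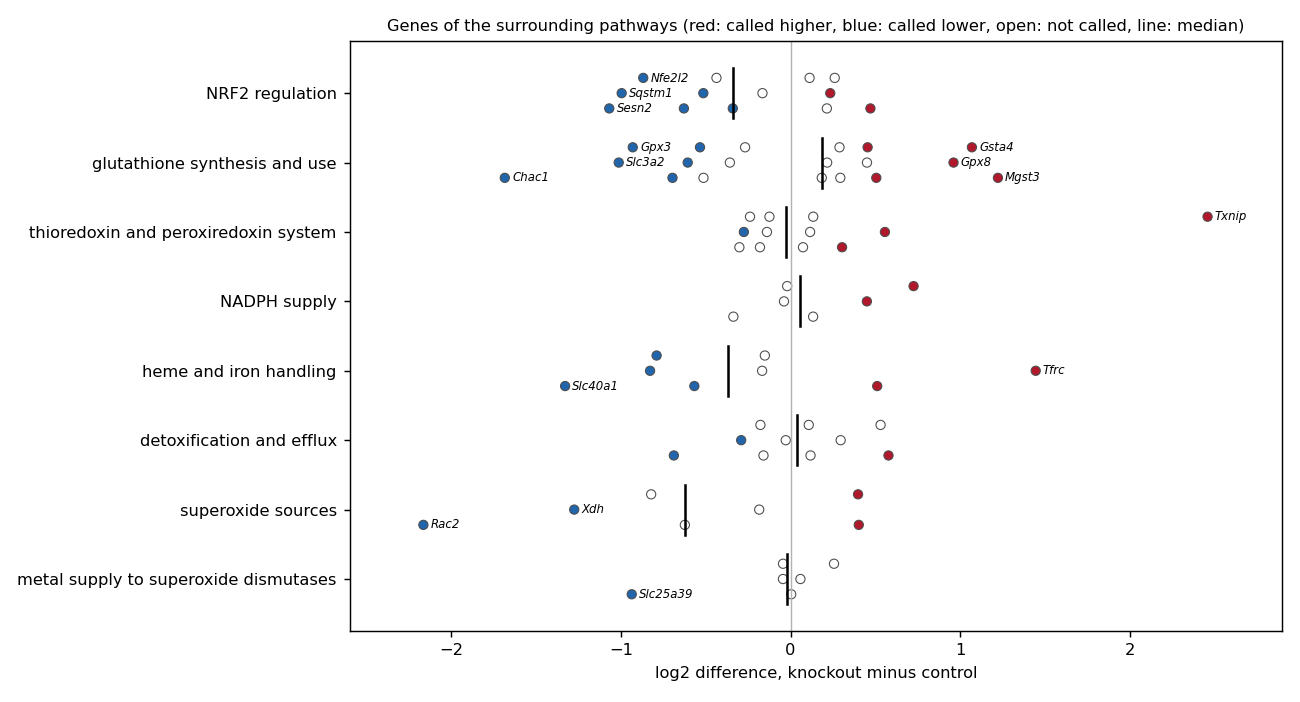
Log2 difference (knockout minus control, horizontal axis) of every tested gene in 8 lists of surrounding pathways, each point 1 gene (red called higher, blue called lower, open not called) and each black line the median of the list. The lists for NRF2 regulation, heme and iron handling and superoxide sources have medians of -0.34, -0.37 and -0.62, and the other 5 lie between -0.03 and 0.18. The median of superoxide sources is the value of Cybb, which was not called and had means of only 1.27 CPM (knockout) and 1.99 CPM (control). Of the 7 genes tested in that list 2 were called higher and 2 lower.

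Over the 8 lists together, 81 of 89 genes were tested, of which 17 were called higher and 22 lower. That is 48.1%, near the 43.0% of all tested genes.

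The genes whose library pattern was most like each member were sought among 10213 others, by the root mean square difference of centred log2 CPM over the 12 libraries. For Slc7a11 these were Fkbp11 (0.172) and Slc1a5 (0.178). For Hmox1 they were Atf6b (0.0395) and Ergic3 (0.0501), for Nqo1 AI414108 and Tuba1a (0.112 each), and for Srxn1 Lamtor1 (0.0784) and Pabpc1 (0.0803). For Sod3 they were C1qtnf1 (0.35) and Svep1 (0.384), for Sod2 Tra2a (0.0554) and Srsf6 (0.0571) and for Txnrd1 Ncbp1 (0.0515) and Psme3 (0.0617). These differences are not scaled to the spread of each gene, so they do not rank how close the matches are. The SD of log2 CPM over the 12 libraries was 1.255 for Sod3 and 0.124 for Sod2.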

How the data were processed

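RNA was poly(A)-selected and made into strand-specific libraries with dUTP, per the labels' protocols. The deposited values are expected counts per gene (estimated reads), one column per library. Per the submitters' processing notes the tools were Bowtie2 2.1.0 and RSEM 1.2.15. These notes list a human build although row names are mouse symbols, so no coordinates are given for the counts. Neither the annotation nor the strand setting is given in the sources used here. Between 2.67% and 3.48% of values per library had decimals, and values were rounded to whole numbers.

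Groups and replicate numbers came from the sample titles. The filterByExpr function removed low genes (minimum count 10, minimum total 15). After TMM scaling, quasi-likelihood tests were run in edgeR 4.0.16 under R 4.3.3, genotype as the only term, over all 12 libraries, with Benjamini-Hochberg adjustment over all 12146 genes and a threshold of 0.05. CPM uses scaled library sizes. Folds are those of the fit. Counts of the 10 genes ran from 20 to 13643 per library.

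The members and lists were chosen with earlier results of these data known. Named genes are the 10 members, Tnfrsf1a, Nfe2l2, Keap1, Bach1, Ccs, and the largest called rise and fall of each list at a mean log2 CPM of at least 2; Fth1, Ftl1, Blvrb, Ireb2, Slc3a2 and Sqstm1, and marker genes, were named after their values were seen. Alternatives were DESeq2 1.42.0, limma-voom (limma 3.58.1), other scalings and filters, a replicate block, each library left out, knockout 5 and 6 with or without control 6 left out, and sums of libraries correlating above 0.98. The script was tested on simulated data.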

Additional observations from a re-analysis of the deposited data

Results flagged for a closer look

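Among the 10 genes, control 6 stood apart from the 5 other controls by Dixon's ratio for Sod1 (130 CPM against 156 to 170), Sod3 (59.1 against 6.60 to 9.06), Txnrd1 (271 against 368 to 408), Srxn1 (116 against 163 to 185) and Slc7a11 (15.1 against 47.3 to 53.2). No knockout library stood apart in this way for the 10 genes, but 2 libraries that lie together, as knockout 5 and 6 do, cannot be picked out by it.

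Of 25 other named genes, 15 had control 6 apart in the same test. Rac2, Hmox2, Blvra, Cybb, the marker genes and the genes of like pattern were not put to it. In the 15 genes control 6 lay on either side. Control 6 was low for Tnfrsf1a (54.9 CPM), Nfe2l2 (191.8), Bach1 (48.5), Sesn2 (75.3), Chac1 (24.4), Prdx6 (184.4), Slc25a39 (101.9), Ftl1 (2915), Slc3a2 (197.3) and Sqstm1 (834.6). It was high for Txnip (95.1 CPM), Me1 (135.5), Ugdh (185.2), Xdh (304.1) and Ireb2 (76.4). Chance gives such a flag in about 1 of 20 groups. The 20 flags all fall on 1 library, so they are not separate events.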

How the results depend on the processing

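Each result was computed under 22 alternatives. Hmox1, Srxn1 and Slc7a11 kept their direction in all of them and their call in 21, losing it when near-identical libraries were summed. Nqo1 kept its call in 20 and Sod2 in 12. With near-identical libraries summed, 0 members were called higher and 0 lower, as were 0 genes of the pathway lists and 0 of all genes (6 list genes and 1047 genes in all at an unadjusted p below 0.05; no other tool was run on the sums). Members called higher numbered 1 with library totals alone and 1 with no filter, beside 2138 and 2488 of all genes. Leaving out 1 library gave 1 to 2 members called higher and 3 to 4 lower. Over all genes those fits called 2148 to 3092 higher and 2270 to 2977 lower. Without knockout 5, knockout 6 and control 6, 6 members were called lower, 33 list genes higher, and 4319 genes higher and 4508 lower in all. The sign of the log2 difference turned for Sod3 without control 6 (0.42) and without all 3 libraries (0.92), and for Txnrd1 without knockout 5 and 6 (-0.14) and without all 3 (-0.21). Over fits without 1 library Sod3 ran from -0.78 to 0.42 and Gclm from -0.0148 to 0.0470. For Gclm the sign also turned with library totals alone (-0.0514) and with no filter (-0.0020), and for Ccs with summed libraries (0.00049). The cause was not tested. Ugdh missed the threshold without knockout 5 and 6 (adjusted p = 0.0532), and DESeq2 gave no adjusted p for Txnip.

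Whether the replicate numbers pair the libraries could not be settled. Same-numbered libraries deviated together at correlations of -0.346 to 0.157, and 0 of 6 knockout libraries correlated best with their own number. Deviations from a genotype mean also carry the differences between the 4 sets, so these values can neither show nor exclude pairing. With a replicate block edgeR called 0 members higher (2 at an unadjusted p below 0.05) and 3 lower. Over all 12146 genes that fit called 1867 higher and 2107 lower, and 44.6% had an unadjusted p below 0.05.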

Other observations

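In genes that supply NADPH, the reductant used by NQO1, thioredoxin reductase and glutathione reductase, 2 of 6 were called higher, none lower and 4 were not called. Their called share was 33.3%, against 43.0% of all tested genes. Me1, malic enzyme, was at 190 to 203 CPM in knockout 1 to 4, at 109.9 and 110.5 CPM in knockout 5 and 6, at 90.9 to 98.1 CPM in control 1 to 5 and at 135.5 CPM in control 6 (log2 difference 0.73, SE 0.18; edgeR adjusted p = 0.00618). Like Nqo1, it was above the controls in knockout 1 to 4 but below control 6 in knockout 5 and 6.

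Of 11 detoxification and efflux genes, 10 were tested, with 1 called higher, 2 lower and 7 not called. Here 30% were called, against 43.0% of all tested genes. Ugdh, which makes UDP-glucuronate for conjugation and for matrix glycans, had means of 184 CPM in the knockout and 124 CPM in the control (edgeR adjusted p = 0.0138), with control 6 at 185.2 CPM inside the knockout range. Osgin1, an oxidative stress response gene, fell from 8.11 ± 0.514 to 5.01 ± 1.04 CPM (SD, n = 6 each; edgeR adjusted p = 0.00199), with no overlap between the groups.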
